A study of Mus musculus with 11 samples.

Results

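Thpok is the zinc finger factor made from the gene Zbtb7b, and it directs maturing thymocytes into the CD4 helper lineage. It is known for holding down genes of the cytotoxic CD8 lineage, so the usual question about a gene changed by its loss is whether the gene has moved toward the CD8 state. The genes described here are of another kind: on 9 of the 11 arrays, their level in Thpok-deficient effectors lay outside the levels of both wild-type lineages. On those 9 arrays 9 genes met this description, 6 higher and 3 lower in Thpok-deficient cells, out of 14970 rows of the array table that carried 1 gene symbol. With all 11 arrays, 3 of them met it (Hivep3, Smo and Cnih2) and none of the lower ones. The higher genes were Hivep3, Efnb2, Smo, Sp6, Cnih2 and Chchd1, and the lower genes were C1qtnf12, Pglyrp1 and Lgals4.

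The 11 arrays hold RNA from effector T cells of mice and fall into 4 groups. Mice of genotype Thpok f/f CD2cre, in which Cre driven by CD2 deletes the floxed Thpok alleles, gave CD4+CD8+ cells on 3 arrays and CD4+CD8- cells on another 3. Wild-type mice gave CD4-CD8+ cells, named CD8 cells from here on, on 2 arrays and CD4+CD8- cells on 3. All cells started as naive CD44-low spleen T cells, were cultured for 4 days with anti-CD3, anti-CD28, IL-2, IL-12 and anti-IL-4 (Th1 conditions) beside irradiated splenocytes depleted of T cells, and were then sorted. No age is given, and the labels do not say whether the wild-type mice carried floxed alleles or Cre, so an effect of Cre itself and an effect of Thpok loss cannot be told apart. The replicates came from 2 cell preparations that the labels do not tie to arrays, so the spread between arrays may partly be technical.

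Values are deposited log2 intensities, and a difference of 1 is a doubling. Thpok-deficient CD4+CD8+ replicate 3 and wild-type CD4+CD8- replicate 3 had a narrow range of values (SD over all rows 1.70 and 1.54, against 1.94 to 2.06 on the other 9 arrays). Olfactory, vomeronasal and trace amine receptor genes, which T cells are not known to use, served as a gauge of background: 95% of these 809 rows lay below 5.18 to 5.80 on the 9 arrays, below 6.53 on the first narrow array and below 7.34 on the second. Zbtb7b averaged 6.69 ± 0.36 in the CD4+CD8+ and 6.90 ± 0.23 in the CD4+CD8- cells lacking Thpok (SD, n = 3 each), against 7.06 ± 0.24 in wild-type CD8 cells (n = 2) and 8.43 ± 0.35 in wild-type CD4+CD8- cells (n = 3). No source used here places its probes inside or outside the deleted part. Markers of alpha-beta T cells averaged 9.89 to 11.07 per array.

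The 9 genes were chosen by their values on the 9 arrays of wider range, so these values describe them and are not tested. The mean of the 5 Thpok-deficient arrays (CD4+CD8+ replicates 1 and 2, CD4+CD8- replicates 1 to 3) had to differ by at least 0.7, in 1 direction, from the mean of the wild-type CD8 arrays and from the mean of wild-type CD4+CD8- replicates 1 and 2, and the 5 had to lie wholly above or wholly below the 4. The steps narrow the table quickly. Against wild-type CD4+CD8- cells alone, 490 rows were higher and 335 lower by the limit, and against wild-type CD8 cells alone 120 and 191. Only 14 rows were higher and 13 lower than both means by the limit, and 68 higher (0.454% of rows) and 76 lower (0.508%) had arrays that did not overlap. Both conditions together left 6 rows higher, 0.0401% of all, and 3 lower, 0.02% of all.

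**Figure D1:**
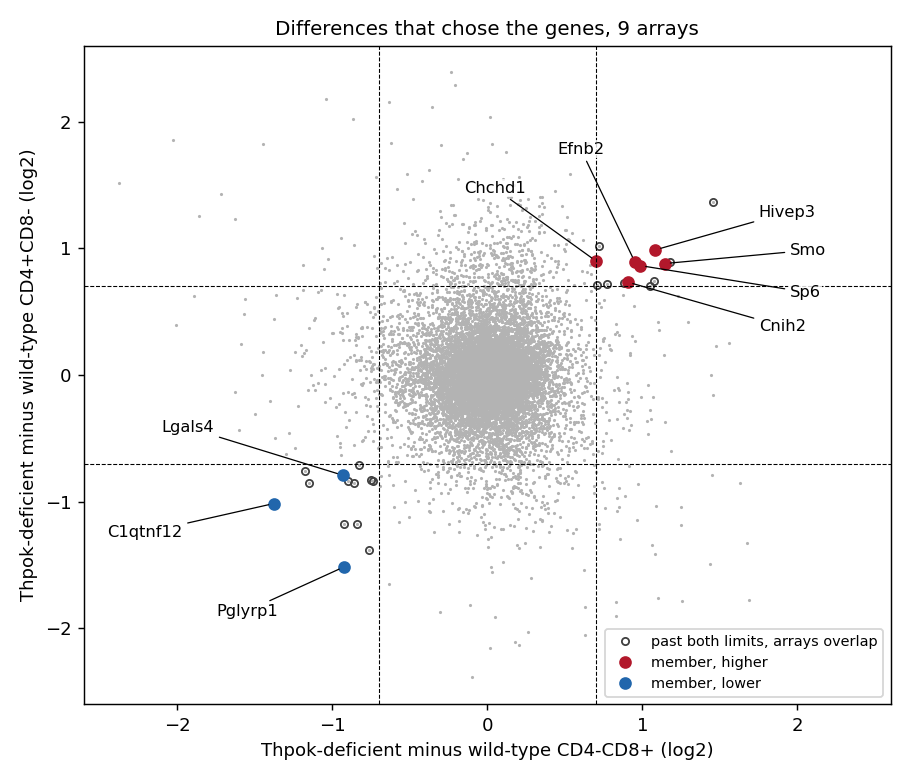
Log2 difference of the Thpok-deficient mean (5 arrays) from wild-type CD8 cells (horizontal axis) and from wild-type CD4+CD8- cells (vertical axis), 1 grey point per row with 1 gene symbol, dashed lines at the limit of 0.7 and 8 rows beyond the axes. The 6 higher genes lie together at the upper right and the 3 lower genes at the lower left, among open circles for rows past both limits whose arrays overlapped.

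Of the higher genes, Smo, Efnb2 and Cnih2 encode membrane proteins. Smo is the membrane protein that transmits Hedgehog signals into the cell, and in cytotoxic T cells this pathway has been linked to killing. It read 8.20 and 7.79 in Thpok-deficient CD4+CD8+ cells and 8.11, 7.76 and 8.28 in Thpok-deficient CD4+CD8- cells, against 6.87 and 6.89 in wild-type CD8 cells and 7.29 and 7.01 in wild-type CD4+CD8- replicates 1 and 2. Each Thpok-deficient array stood at least 0.47 above the highest wild-type array. The mean was higher by 1.15 than in CD8 cells (2.21-fold) and by 0.88 than in wild-type CD4+CD8- cells (1.84-fold). Smo was also the higher gene with the strongest signal, above 77.6% of all rows by its mean.

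Efnb2 encodes ephrin-B2, a membrane ligand that binds Eph receptor kinases on neighbouring cells. It read 5.31 and 5.30 in Thpok-deficient CD4+CD8+ cells and 6.02, 5.42 and 5.07 in Thpok-deficient CD4+CD8- cells, against 4.56 and 4.39 in wild-type CD8 cells and 4.45 and 4.61 in wild-type CD4+CD8- cells. The 4 wild-type arrays lay close together and the Thpok-deficient CD4+CD8- arrays were the most spread. This was the weakest signal of the 9: it exceeded the background level of its array in 2 of 5 Thpok-deficient and 0 of 4 wild-type arrays, whereas the other 8 genes did so on every one of the 9 arrays. Its differences of 0.95 from CD8 cells and 0.89 from wild-type CD4+CD8- cells are set against wild-type readings below that background level.

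Cnih2 encodes a cornichon protein, which escorts cargo from the endoplasmic reticulum and, in neurons, accompanies AMPA-type glutamate receptors. It read 7.50 and 8.39 in Thpok-deficient CD4+CD8+ cells and 8.02, 8.09 and 7.54 in Thpok-deficient CD4+CD8- cells, against 6.55 and 7.46 in wild-type CD8 cells and 7.16 and 7.19 in wild-type CD4+CD8- cells. The groups were separated by 0.04 only, between Thpok-deficient CD4+CD8+ replicate 1 and wild-type CD8 replicate 2. Its differences were 0.90 from CD8 cells and 0.73 from wild-type CD4+CD8- cells, and without CD8 replicate 1 the smaller of them was 0.45.

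Hivep3 and Sp6 encode zinc finger transcription factors. Hivep3, also called Schnurri-3 or KRC, is known in T cells as a partner of c-Jun that raises IL-2 transcription. It read 7.31 and 6.73 in Thpok-deficient CD4+CD8+ cells and 6.82, 6.62 and 7.27 in Thpok-deficient CD4+CD8- cells, against 5.57 and 6.16 in wild-type CD8 cells and 5.84 and 6.09 in wild-type CD4+CD8- cells. The lowest Thpok-deficient array was 0.46 above the highest wild-type array. With differences of 1.08 from CD8 cells (2.12-fold) and 0.99 from wild-type CD4+CD8- cells (1.99-fold), it had the highest value among the 6 for the smaller of its 2 differences.

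Sp6, also called epiprofin, is an Sp-family factor known for its part in tooth and skin development. It read 6.84 and 6.59 in Thpok-deficient CD4+CD8+ cells and 7.18, 6.70 and 6.76 in Thpok-deficient CD4+CD8- cells, against 6.06 and 5.60 in wild-type CD8 cells and 6.49 and 5.41 in wild-type CD4+CD8- cells. The wild-type CD4+CD8- replicates differed from each other by more than the group means did, and replicate 1 came within 0.10 of the lowest Thpok-deficient array. Without wild-type CD4+CD8- replicate 2 the smaller difference dropped to 0.32, against 0.86 with it.

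Chchd1 encodes a small protein of the mitochondrial ribosome. It read 6.63 and 6.60 in Thpok-deficient CD4+CD8+ cells and 7.74, 6.57 and 6.39 in Thpok-deficient CD4+CD8- cells, against 6.36 and 5.80 in wild-type CD8 cells and 5.75 and 6.02 in wild-type CD4+CD8- cells. Thpok-deficient CD4+CD8- replicate 1 stood more than a unit above the other arrays, and the groups were separated by 0.02. Without that replicate the smaller difference was 0.46, and without wild-type CD8 replicate 2 it was 0.42, against 0.70 with both. Chchd1 was the higher gene nearest to the limit.

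**Figure D2:**
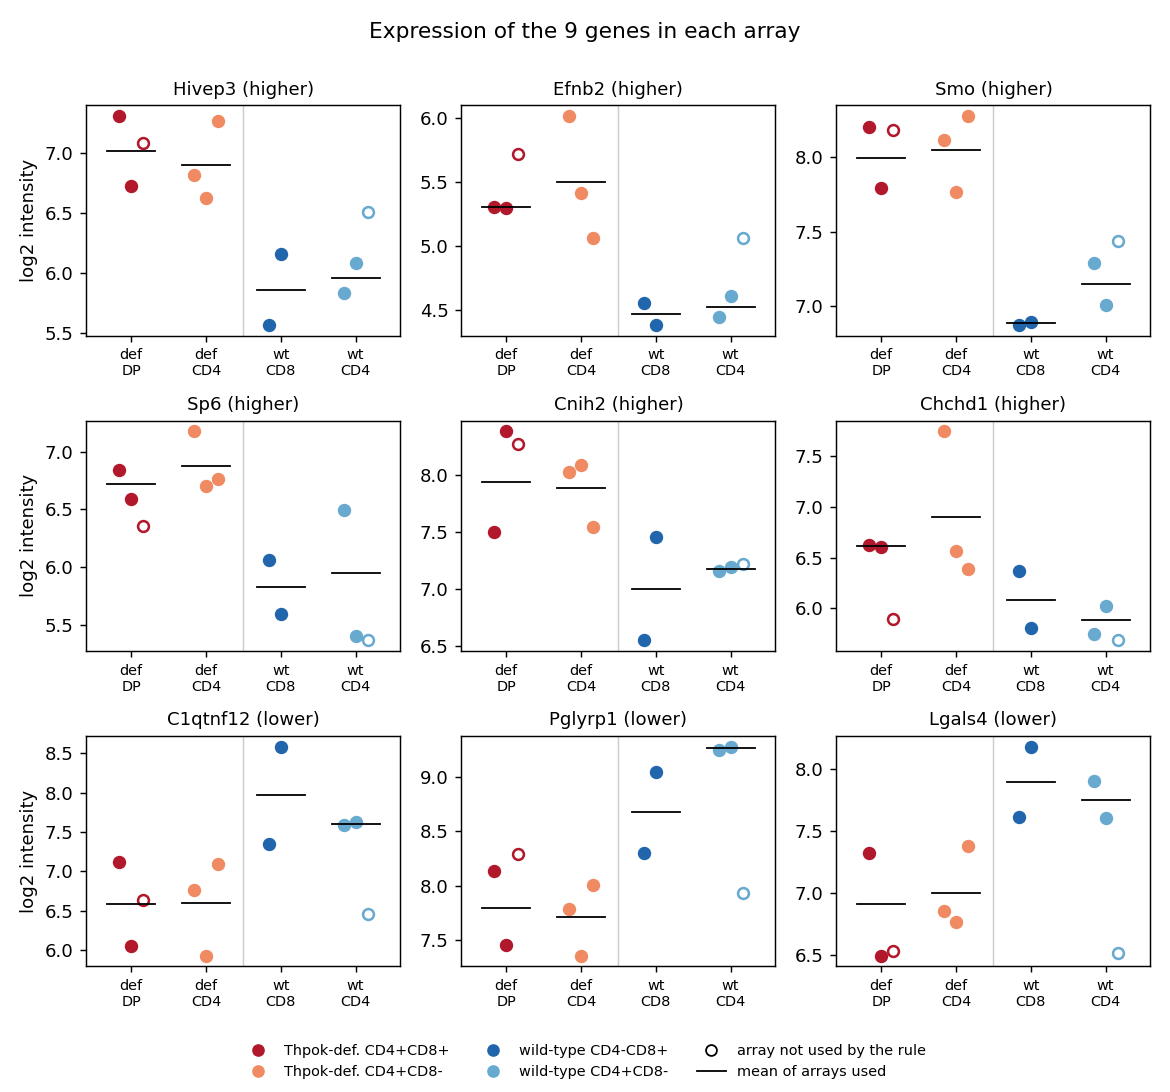
Log2 intensity of each of the 9 genes (vertical axes) in the 4 groups (horizontal axes: Thpok-deficient CD4+CD8+, Thpok-deficient CD4+CD8-, wild-type CD4-CD8+, wild-type CD4+CD8-), 1 point per array, with bars at the mean of the arrays used for the choice and open points for the 2 arrays left out. Filled points of Thpok-deficient cells lie above all filled wild-type points in the first 6 panels and below them in the last 3, where the open wild-type point falls among the Thpok-deficient ones.

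RefSeq promoters (GRCm38.p6, 250 bases before to 50 after the start) were at hand for 7 of the 9 genes, and 7 short motifs were searched on both strands: TTTCCCGC and TTTGGCGC (E2F), TTTGAA (cell cycle homology region), CCAAT (NF-Y), CACGTG (E-box), TGTGGT (Runx) and TGATGNAA (ATF4). CCAAT occurred in 3 of the 7 (42.9%; Efnb2, Cnih2 and Lgals4), where 37.4% of 32851 promoters hold it, and CACGTG in Chchd1, where 7.15% do. The other 5 motifs were in none of the 7. Those of Smo and Hivep3 are shown because these genes met the rule under more alternatives than the rest of the 7. That of Efnb2 is shown because it holds CCAAT at 2 places, beginning at -95 and -65 relative to the start. Capitals mark motif letters, and no motif was found in the first 2. They lie at chr6:29735247-29735546 (plus strand), chr4:119814428-119814727 (plus) and chr8:8661193-8661492 (minus), with a GC content of 67.7%, 44.3% and 72.3%, against a median of 52.7% over all promoters.
Smo: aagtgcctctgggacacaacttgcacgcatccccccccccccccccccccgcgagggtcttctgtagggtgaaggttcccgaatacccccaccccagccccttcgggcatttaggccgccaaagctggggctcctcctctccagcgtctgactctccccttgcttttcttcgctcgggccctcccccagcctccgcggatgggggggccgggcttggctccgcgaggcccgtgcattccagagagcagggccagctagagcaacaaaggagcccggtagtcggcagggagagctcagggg
Hivep3: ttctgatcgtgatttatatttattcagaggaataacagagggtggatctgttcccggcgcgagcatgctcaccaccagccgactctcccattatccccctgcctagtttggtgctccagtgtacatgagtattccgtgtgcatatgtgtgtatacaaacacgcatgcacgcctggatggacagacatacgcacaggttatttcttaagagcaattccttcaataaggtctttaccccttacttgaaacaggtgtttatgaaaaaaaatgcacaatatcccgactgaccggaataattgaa
Efnb2: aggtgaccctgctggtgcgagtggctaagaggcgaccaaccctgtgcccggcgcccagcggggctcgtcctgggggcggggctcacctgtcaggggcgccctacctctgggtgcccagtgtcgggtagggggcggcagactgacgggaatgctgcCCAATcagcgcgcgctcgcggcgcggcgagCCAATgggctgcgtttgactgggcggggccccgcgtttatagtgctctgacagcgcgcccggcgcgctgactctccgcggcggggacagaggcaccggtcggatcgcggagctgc
These letters describe the windows and show no site in use.

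The 3 lower genes were Pglyrp1, C1qtnf12 and Lgals4. Pglyrp1 encodes a peptidoglycan recognition protein, an antibacterial protein stored in neutrophil granules. It read 8.13 and 7.46 in Thpok-deficient CD4+CD8+ cells and 7.79, 7.36 and 8.01 in Thpok-deficient CD4+CD8- cells, against 8.30 and 9.04 in wild-type CD8 cells and 9.25 and 9.27 in wild-type CD4+CD8- cells. The difference from wild-type CD4+CD8- cells, -1.51 (2.86-fold lower), exceeded every other difference among the 9 genes, while that from CD8 cells was -0.92. Pglyrp1 also had the strongest signal of the 9. Without wild-type CD8 replicate 2 the difference from CD8 cells was -0.55. As a measure of cells that carry such granules, 9 other neutrophil granule genes averaged 4.03 to 4.31 per Thpok-deficient array and 3.95 to 4.17 per wild-type array. These averages lay below the background level on each of the 9 arrays. By single gene, 8 of the 9 exceeded that level on 0 of the 9 arrays, whereas Elane did so on 7. The 7 measured myeloid markers averaged 4.85 to 5.26. In RNA from a whole sorted population, fewer expressing cells and less RNA per cell cannot be told apart.

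C1qtnf12 encodes adipolin, a secreted protein of the C1q and TNF related family that improves insulin sensitivity in mice. It read 7.12 and 6.05 in Thpok-deficient CD4+CD8+ cells and 6.77, 5.93 and 7.10 in Thpok-deficient CD4+CD8- cells, against 7.35 and 8.58 in wild-type CD8 cells and 7.58 and 7.63 in wild-type CD4+CD8- cells. The 2 CD8 arrays were the most spread of the wild-type arrays, and the highest Thpok-deficient array differed by -0.24 from the lowest wild-type array. Its differences of -1.38 from CD8 cells and -1.01 from wild-type CD4+CD8- cells made it the 1 gene of the 9 that also met the rule with a limit of 1.

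Lgals4 encodes galectin-4, a sugar-binding protein best known from the intestinal epithelium. It read 7.33 and 6.50 in Thpok-deficient CD4+CD8+ cells and 6.86, 6.77 and 7.38 in Thpok-deficient CD4+CD8- cells, against 7.62 and 8.18 in wild-type CD8 cells and 7.91 and 7.61 in wild-type CD4+CD8- cells. The highest Thpok-deficient array differed by -0.23 from the lowest wild-type array, and the mean differed by -0.93 from CD8 cells and by -0.79 from wild-type CD4+CD8- cells.

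Among the 5 Thpok-deficient arrays the lower genes shared their highest readings. CD4+CD8+ replicate 1 and CD4+CD8- replicate 3 were the 2 highest for all 3 lower genes and also for Hivep3 and Smo, 2 of the 6 higher genes. For Cnih2 the same arrays were the 2 lowest. The share of all rows in which these arrays are the 2 highest is not given, so the order is not read as a trait of these genes. Over all single-symbol rows, the deviations of these arrays from the 5-array mean correlated at 0.307 across genes, and those of CD4+CD8+ replicate 2 and CD4+CD8- replicate 2 at 0.364, while the other 8 pairs ran from -0.656 to -0.007. Genes are not independent replicates, deviations from a shared mean lean negative, and whether these arrays share a cell preparation was not tested.

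Just outside the choice were H2bc1, a histone gene (0.87 from wild-type CD4+CD8- cells and 0.66 from CD8 cells), Cd160, a receptor of CD8 and NK cells (1.83 and 0.65), and Padi2 (0.73 and 0.62). On the lower side they were Ccdc91 (-0.79 and -0.63), Usp53 (-0.64 and -0.61) and Aldh2, a mitochondrial aldehyde dehydrogenase (-1.04 and -0.60). All 6 had arrays that did not overlap and missed the limit against 1 or both wild-type groups. Just inside were Chchd1, Cnih2 and Sp6 with smaller differences of 0.70, 0.73 and 0.86, and all 3 lower genes with -0.79, -0.92 and -1.01.

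The 2 arrays that the choice left out allow a comparison with wild-type CD4+CD8- cells on arrays not used for it. Either may share a cell preparation with arrays that chose the genes, so the pair may not be independent of the choice. The 2 arrays include no CD8 array, so they cannot show whether a gene lies outside both lineages. The difference from CD4+CD8- cells alone was passed by 490 and 335 rows above. In Thpok-deficient CD4+CD8+ replicate 3 against wild-type CD4+CD8- replicate 3, all 6 higher genes were higher. Cnih2 read 8.27 against 7.22, Sp6 6.36 against 5.37 and Smo 8.18 against 7.44, differences of 1.06, 0.99 and 0.74. Efnb2 read 5.72 against 5.07 (0.65), Hivep3 7.08 against 6.51 (0.57) and Chchd1 5.90 against 5.68 (0.21). Thus 3 of 6 passed 0.7, where 10.6% of all single-symbol rows did, and 6 of 6 exceeded 0, where 44.6% of rows did. Of the 3, Smo alone read above the background level on both arrays, and Sp6 did so on neither. Among rows of a mean signal of at least 6, which leaves out Efnb2, 3 of 5 passed 0.7, where 20.3% of rows did. The median was 0.70 for the 6 genes and -0.06 for all rows. Both arrays have a narrow range, and rows of a mean signal of 7 to 8 shifted by a median of -0.40 on the Thpok-deficient array and -0.57 on the wild-type array from replicates 1 and 2 of their groups. For 8 to 9 the medians were -0.42 and -0.71, for 6 to 7 they were -0.17 and -0.24, and for 5 to 6 they were 0.35 and 0.47. At the higher signals the wild-type array was thus shifted down further than the Thpok-deficient array. After a further quantile normalization 3 of 6 again passed 0.7, where 11.3% of rows did. They were not the same 3, as Smo fell to 0.49 and Efnb2 rose to 0.98. The part of the shift in the result was not tested. The wild-type array also stood apart in 18 cell cycle genes, which averaged 5.69 on it, against 7.25 and 8.20 on replicates 1 and 2. They averaged 8.50 on the Thpok-deficient array, against 8.53 and 8.98. Not every list moved: CD4 helper genes averaged 8.79 on the wild-type array, against 8.80 and 8.95. Whether the cells of this array were in another state was not tested.

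With 1 array on each side there is no replicate check and no test. Several of the readings lay in the background range of these arrays: 6 of the 9 genes exceeded the background level in the Thpok-deficient array and 2, Smo and Pglyrp1, in the wild-type array. Efnb2, Sp6 and Chchd1 exceeded it on neither array, so their differences in this pair say little. Set against the arrays used for the choice, the left-out Thpok-deficient array lay above all 4 wild-type arrays for 4 of the 6 genes, the exceptions being Sp6 and Chchd1. The left-out wild-type array lay below all 5 Thpok-deficient arrays for 5 of 6, the exception being Efnb2, where it read the same 5.07 as Thpok-deficient CD4+CD8- replicate 3. The arrays these counts are set against chose the genes, and no share over all rows stands beside them. They describe the readings and are no support for the choice.

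The lower genes were not lower in this pair. C1qtnf12 read 6.64 in the Thpok-deficient array against 6.46 in the wild-type array, Pglyrp1 8.29 against 7.93 and Lgals4 6.54 against 6.52, differences of 0.18, 0.36 and 0.02. None of the 3 was below 0, where 55.2% of all rows were, and 0 of 3 passed -0.7, where 8.63% did. On the wild-type array C1qtnf12 and Lgals4 read below its background level of 7.34, so for them the pair cannot show a decrease. The further downward shift of that array at higher signals, given above, applies here too, and its part was not tested. The left-out Thpok-deficient array still lay below all 4 wild-type arrays for each of the 3, for Pglyrp1 narrowly (8.29 against a lowest wild-type reading of 8.30). Those 4 arrays chose the genes, and no share over all rows stands beside this count either. From the mean of replicates 1 and 2 of its group, the Thpok-deficient array differed by 0.06 for C1qtnf12, 0.50 for Pglyrp1 and -0.37 for Lgals4, and the wild-type array by -1.15, -1.33 and -1.24. For Pglyrp1 the left-out Thpok-deficient array also lay above all 5 Thpok-deficient arrays used, the highest of which read 8.13.

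**Figure D3:**
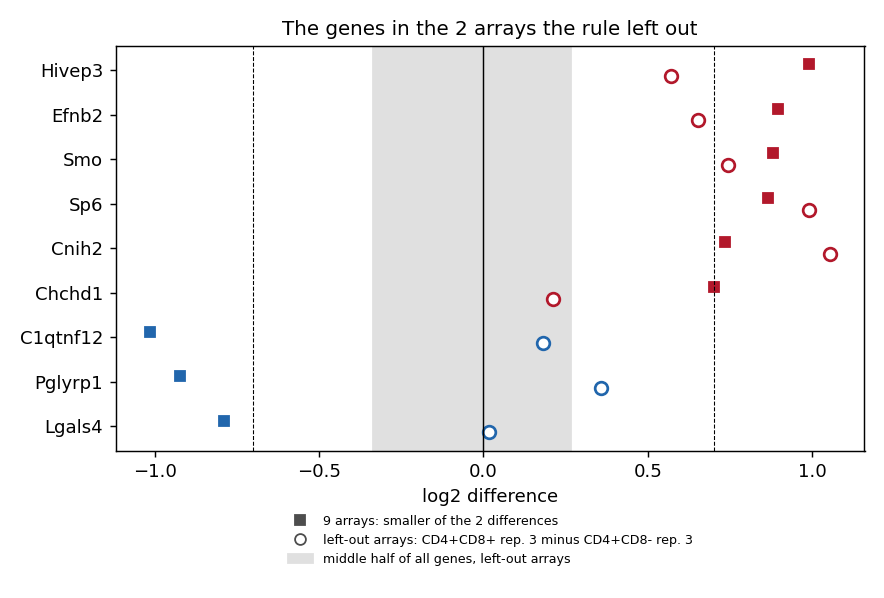
Log2 differences (horizontal axis) for the 9 genes, with filled squares for the smaller of the 2 differences on the 9 arrays used for the choice and open circles for Thpok-deficient CD4+CD8+ replicate 3 minus wild-type CD4+CD8- replicate 3. Circles of the 6 higher genes lie between 0.21 and 1.06 and those of the 3 lower genes between 0.02 and 0.36, with the grey band (-0.34 to 0.27) running between the quartiles of all genes.

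Differences within a genotype were taken from arrays that the choice used, and the demand that all Thpok-deficient arrays lie on 1 side of all wild-type arrays favours genes with small ones. They are given as a description and are no independent test. Limma, here and below, treats the arrays as independent. Some may share a cell preparation, so its standard errors and intervals may be too narrow. In wild-type cells (CD8 minus CD4+CD8-, limma over all 11 arrays), 0 of the 9 genes passed an adjusted p of 0.05 and 0 had an unadjusted p under 0.05, where 0.534% and 11.5% of 16673 rows did. The estimates ran from -0.36 ± 0.23 (SE) for Smo, which averaged 6.88 ± 0.01 (SD, n = 2) in CD8 cells and 7.24 ± 0.22 (n = 3) in CD4+CD8- cells, to 0.74 ± 0.50 (SE) for C1qtnf12, at 7.97 ± 0.87 (n = 2) and 7.22 ± 0.66 (n = 3). The 95% intervals were -0.86 to 0.14 for Smo, -0.93 to 0.37 for Hivep3 and -0.36 to 1.85 for C1qtnf12.

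Between the Thpok-deficient subsets (CD4+CD8+ minus CD4+CD8-) 0 of the 9 genes passed, and 0 had an unadjusted p under 0.05 (limma). Here 0% of 16673 rows were called and 2.03% had an unadjusted p under 0.05, so the count says nothing about these genes. Smo had nearly equal means in both subsets, 8.06 ± 0.23 and 8.05 ± 0.26 (SD, n = 3 each), with a difference of 0.01 and a 95% interval of -0.44 to 0.45. For Hivep3 the difference was 0.13 (-0.45 to 0.71) and for Efnb2 -0.06 (-0.64 to 0.52). Chchd1 had the widest gap, -0.53 (-1.30 to 0.25), at 6.37 ± 0.41 and 6.90 ± 0.74 (n = 3 each), and Sp6 followed at -0.28 (-0.96 to 0.39). The lower genes stood at 0.24 for Pglyrp1, 0.00 for C1qtnf12 and -0.21 for Lgals4.

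**Figure D4:**
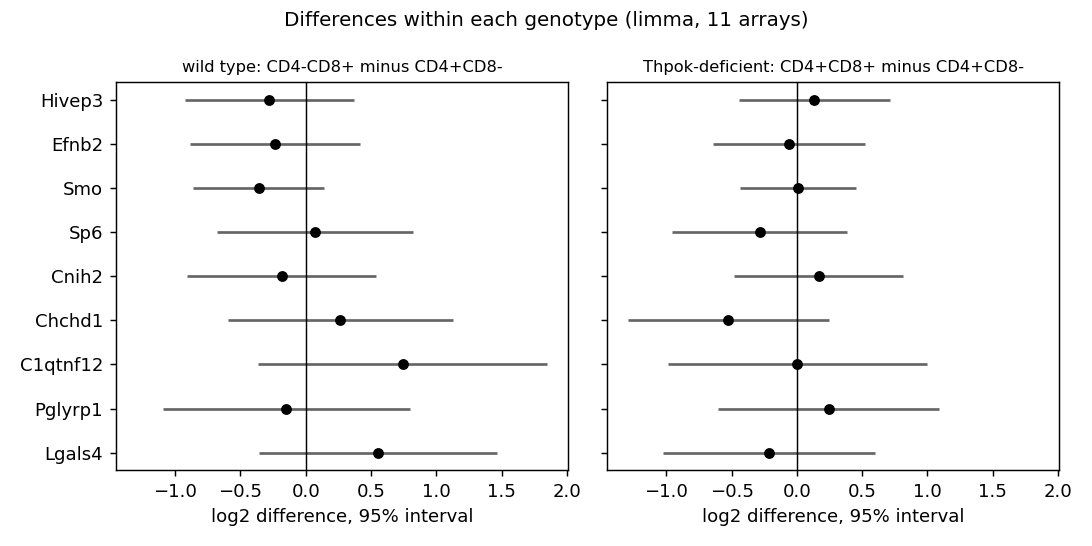
Log2 difference with its 95% interval (horizontal axes, limma over 11 arrays) for each of the 9 genes, at left wild-type CD4-CD8+ minus CD4+CD8- cells and at right Thpok-deficient CD4+CD8+ minus CD4+CD8- cells, on arrays that also chose the genes. Every interval includes 0, with estimates from -0.36 to 0.74 at left and from -0.53 to 0.24 at right.

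The members were set beside the other genes of their families and pathways, a list made after the 9 names were known. In the difference of all Thpok-deficient from all wild-type groups (limma, the 4 group means weighted equally), 0 of 101 relatives passed an adjusted p of 0.05 and 2 had an unadjusted p under 0.05, beside 0% and 3.77% of 16673 rows. Many relatives were not above background: 14 of 17 ephrins and Eph receptors, 6 of 13 Hedgehog genes, 5 of 7 C1q and TNF related proteins and both peptidoglycan recognition proteins exceeded it on 0 of the 9 arrays, so that their differences say little. In the Hedgehog pathway 13 genes were measured beside Smo, 3 of them above 0, with a median of -0.03, against -0.01 for all rows. Ptch1, the Hedgehog receptor that restrains Smo and is itself a pathway target, stood at -0.04 ± 0.17 (SE), and Gli1, the transcription factor that reports pathway output, at -0.02 ± 0.17. Among 17 other ephrins and Eph receptors 5 were above 0 (median -0.04), and Efnb1, another B-class ephrin, was at 0.07 ± 0.17.

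The other Hivep factors did not pass either: Hivep1 stood at -0.07 ± 0.20 and Hivep2, a regulator of thymic selection, at -0.14 ± 0.16 (SE). Of 7 other Sp factors 6 were above 0 (median 0.04), with Sp4 at 0.27 ± 0.25. The 2 relatives with an unadjusted p under 0.05, named after their values were seen, were Mrps18b, of the mitochondrial ribosome, at 0.68 ± 0.20, and Cnih1, a cornichon like Cnih2, at 0.43 ± 0.17 (SE; both with a limma adjusted p of 1.00). Mrps18b was higher by 1.05 than wild-type CD4+CD8- cells but by 0.25 than CD8 cells, and Cnih1 by 0.65 and 0.04, on the 9 arrays. Cnih4 stood at 0.07 ± 0.15. The other Chchd proteins with the small subunit of the mitochondrial ribosome, 31 genes, had a median of 0.05 with 20 above 0. On the lower side, Pglyrp3 and Pglyrp4 lay below background on all 9 arrays, and their differences are not read.

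Galectins were the family with a further gene past the limit. Lgals3, galectin-3, read 9.89 and 7.67 in Thpok-deficient CD4+CD8+ cells (first 2 replicates) and 8.83, 7.36 and 9.75 in Thpok-deficient CD4+CD8- cells, against 9.95 and 9.74 in wild-type CD8 cells and 9.95 and 9.15 in wild-type CD4+CD8- replicates 1 and 2. Its mean differed by -1.15 from CD8 cells and by -0.86 from wild-type CD4+CD8- cells, but the arrays overlapped, so it was not a member. In the left-out pair it went the other way, 8.99 against 6.60, the latter below the background level of its array. Over 11 arrays the difference was -0.46 ± 0.64 (SE). The median of 6 other galectins was -0.03, with 1 above 0.

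Among 373 measured genes on 30 lists of lineage, effector, metabolic, proliferation and cell type marker genes 0 were members, where members make up 0.0601% of all single-symbol rows, so a count of 0 is no result about the lists. Cd160, described above as just outside the limit, is on the CD8 lineage list.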

How the data were processed

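Expression was measured on 11 Affymetrix arrays, per the labels. The deposited table held 16673 probe sets as log2 intensities, and the log2 scale was checked on their range. Partek, RMA and mm9 are named in the submitters' processing notes; no source used here gives versions, the summary level or filters. In the array annotation 14970 rows carried 1 gene symbol, 1019 several and 684 none, and 14920 of the first were matched to a RefSeq gene by Entrez identifier, giving 14835 symbols.

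The rule was applied to the deposited values with no further normalization. The genes and lists were chosen with earlier results of these data known, and the family lists after the 9 names were known. Within-genotype and family differences came from limma 3.58.1 (R 4.3.3), 1 coefficient per group, all 11 arrays (7 residual and 3.80 prior degrees of freedom). Two-sided p-values were corrected across all 16673 rows (Benjamini-Hochberg, threshold 0.05). The script was tested on simulated data. Named genes are all members, the 3 nearest the limit on each side, and the relatives singled out; the genes past both limits with overlapping arrays were named after their values were seen. Precision is limited by the number of arrays, by the narrow range of 2 of them and, for weak signals, by background. Positions are given for promoters alone.

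Replicate numbers were not read as pairs: deviations of same-number arrays correlated at 0.174, 0.257 and -0.056 between the Thpok-deficient subsets and at 0.269 and 0.009 between the wild-type ones. Alternatives were a further quantile normalization, median centring, a filter at a mean signal of 6, other limits, all 11 arrays in the rule, limma on 9 arrays, 1 row per gene, an intensity trend, array weights, a replicate block and leaving out each array.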

Additional observations from a re-analysis of the deposited data

Results flagged for a closer look

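Rows with several gene symbols were outside the comparisons, and 1 of them met the same rule on the higher side (0 of 684 rows with no symbol did). Probe set 6912581 read 6.38 and 6.79 in the CD4+CD8+ cells lacking Thpok (replicates 1 and 2) and 7.31, 6.77 and 6.16 in the CD4+CD8- cells lacking Thpok, against 6.10 and 5.71 in wild-type CD8 cells and 5.26 and 6.08 in wild-type CD4+CD8- replicates 1 and 2. It differed by 0.78 and 1.02 from those groups, and by 0.70 in the left-out pair (6.33 against 5.62). No gene is named for it, because its annotation holds several.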

How the results depend on the processing

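With a limit of 1 the rule left 0 higher genes and 1 lower, and with 0.5 it left 15 and 12. With all 11 arrays it left 5 higher, of which Hivep3, Smo and Cnih2 are members and Cd160 and H2bc1 are not, and 0 lower. Leaving out 1 array in turn gave 5 to 35 higher and 3 to 22 lower; a rule on fewer arrays is easier to meet. The counts moved past 1.5 times without wild-type CD8 replicate 1 (35 and 22), CD8 replicate 2 (14 and 9), Thpok-deficient CD4+CD8+ replicate 1 (12 and 6), wild-type CD4+CD8- replicate 1 (10 higher), wild-type CD4+CD8- replicate 2 (6 lower) and Thpok-deficient CD4+CD8- replicate 3 (5 lower). Hivep3, Efnb2, Smo and C1qtnf12 were members in all 9 of these, Sp6 and Pglyrp1 in 8, Chchd1 in 7, Cnih2 and Lgals4 in 6. A further quantile normalization left 4 higher genes and median centring 5, of which 4 are members and Sema3f is not, without Cnih2 and Chchd1 in either; both kept the 3 lower. The filter on mean signal removed Efnb2. In the left-out pair Lgals4 turned to -0.0225 after quantile normalization, when the other 8 differences kept their sign. Their sizes were less stable: Smo went from 0.74 to 0.49, below the limit, and Efnb2 from 0.65 to 0.98, above it. Sp6 went from 0.99 to 1.62 and Pglyrp1 from 0.36 to 0.03. With the replicate block 0 of 9 members were called in either within-genotype comparison, as in every other alternative run, where adjusted p-values were 0.334 or higher and 33 of 322 uncalled estimates changed sign. The 101 relatives, of which the filter on mean signal kept 41, also had 0 calls in each alternative, all chosen after seeing the data. Signal over background limits Efnb2 and, on the narrow wild-type array, every member but Smo and Pglyrp1. On the narrow Thpok-deficient array it limits Efnb2, Sp6 and Chchd1.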

Other observations

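A further 8 genes were higher and 10 lower than both wild-type means by at least 0.7 but had arrays that overlapped. On the higher side were the survival kinase gene Pim2 (0.77 from CD8 cells and 0.72 from wild-type CD4+CD8- cells), Hmgb1, a chromatin protein (0.88 and 0.73), Cip2a, an inhibitor of the phosphatase PP2A (0.72 and 1.02), the guidance molecule gene Sema3f (1.05 and 0.71) and St6galnac2. Olfr635 and Olfr61 are olfactory receptor genes. Slbp, which binds histone mRNA, and Olfr61 exceeded the background level on 0 of the 9 arrays, so their differences are not given.

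On the lower side were Igf1r, the IGF-1 receptor (-0.76 from CD8 cells and -1.38 from wild-type CD4+CD8- cells), the tetraspanin gene Cd81 (-0.84 and -1.18), Ermn (-0.93 and -1.18, above background on 5 of 9 arrays), Lgals3, Jmy, Cyp2s1, P4ha2, Arrdc4, Mef2d and Gpld1. In 9 of these 10 genes the 2 highest Thpok-deficient arrays were CD4+CD8+ replicate 1 and CD4+CD8- replicate 3, as for the 3 lower members. On the higher side this held for 1 of the 8 genes. The share of all rows with this order is not given, so the counts are no result about the lower genes. Cd81 read 7.91 and 8.08 on those arrays and 5.97 to 6.37 on the other 3, against 7.45 to 8.26 on the 4 wild-type arrays.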
